A study of Mus musculus with 12 samples.

Results

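Myosin light chains and sarcomeric actins are small gene families in which developmental and adult, slow and fast isoforms replace one another as a muscle fibre is built. The members described here are the 8 genes Myl1, Myl2, Myl3, Myl4, Myl6b, Mylpf, Acta1 and Actc1, taken by symbol from the 28116 gene symbols of the deposited expression table. All 8 passed the filter on low values, a level of at least 1 CPM (counts of reads scaled to library size) in at least 3 of 12 libraries, which 14063 symbols passed.

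The muscle studied was the tibialis anterior of mdx mice (strain C57BL/10ScSn-Dmdmdx/J) aged 4 months, whose fibres lack functional dystrophin, and bulk RNA was sequenced. All 4 groups received cardiotoxin, a venom toxin that destroys fibres and sets off regeneration, so none was uninjured or wild type. The toxin was given with anti-miR106b, which blocks miR-106b, a microRNA, or with the control anti-miR-Scrambled, and muscles were taken at day 3 or day 7, with 3 animals in each group. The arms are called scrambled and anti-miR-106b, and each group is named by its arm and day. The study asked how blocking miR-106b alters gene expression in regenerating dystrophic muscle. The labels do not say whether an animal gave muscles to more than 1 group. If it did, the spread between libraries would be partly within animals.

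In the thick filament, each myosin head carries an essential and a regulatory light chain, which brace its lever arm. In the thin filament, sarcomeric actin forms the track that the heads pull on. In embryonic and newly regenerating skeletal muscle, the atrial and embryonic essential chain Myl4 and the cardiac actin Actc1 are made before the adult fast chains Myl1 and Mylpf and the adult skeletal actin Acta1 take over. Myl2 and Myl3 are shared by slow skeletal fibres and the heart ventricle, and Myl6b is an essential chain of slow and nonmuscle myosin. Tibialis anterior is a mainly fast muscle.

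The actin genes are known to be driven by serum response factor (Srf), which binds the CArG box, a core of 6 A or T bases between CC and GG. Stretches upstream of the 3 members that held such a box within 250 bases of their annotated start are shown, each of 100 bases that end 21 bases before that start (RefSeq, GRCm38.p6). Acta1 lies on the minus strand at chr8:123894796-123894895, Actc1 on the minus strand at chr2:114052896-114052995 and Myl3 on the plus strand at chr9:110763558-110763657. The starts are those of RefSeq. In GENCODE M21 the stretches of Actc1 and Myl3 lie within the gene, since other transcripts start further upstream, and 12 bases of the Myl3 stretch lie in an exon of such a transcript. Capitals mark the CArG box.
Acta1: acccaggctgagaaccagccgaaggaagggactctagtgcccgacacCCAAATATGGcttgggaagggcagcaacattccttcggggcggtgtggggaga
Actc1: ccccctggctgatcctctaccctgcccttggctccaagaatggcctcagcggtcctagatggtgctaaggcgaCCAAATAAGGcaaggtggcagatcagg
Myl3: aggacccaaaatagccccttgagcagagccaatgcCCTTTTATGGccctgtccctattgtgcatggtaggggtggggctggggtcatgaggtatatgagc

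The box began 73 bases before the start in Acta1, 47 in Actc1 and 85 in Myl3. It occurred on either strand in 482 of 32851 RefSeq windows of the same length, or 1.47%. The windows of the other 5 members held none. The E-box (CANNTG, bound by the Myod1 family) occurred in 66.2% of windows and in those of Acta1, Myl1, Myl2, Myl3, Myl6b and Mylpf. The TATA box (TATAAA) occurred in 12.4% of windows and in those of Acta1, Myl1 and Myl2. Only Acta1 held it on the gene's own strand, beginning 7 bases before the RefSeq start. The GENCODE M21 start of Acta1, at chr8:123894751, lies further downstream, so distances of its boxes from that start are longer. Myl1 and Myl2 held it on the opposite strand, read as TTTATA. Myl2 had windows starting at chr5:122092474 and chr5:122092939, and only the latter held it. The MEF2 box, searched by its consensus, occurred in 2.92% of windows and in no member's. All windows follow RefSeq starts. In GENCODE M21 those of Myl1 and Mylpf lie within the gene, and both of Myl2 lie well before its start at chr5:122100951. Bases next to the GENCODE starts of these genes were not searched. A match of letters is a description and not a bound site.

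The targeted microRNA, mmu-miR-106b-5p (RefSeq, GRCm38.p6, chr5:138165787-138165807, minus strand), is shown because the search for its sites rests on its seed, bases 2 to 8, in capitals.
mmu-miR-106b-5p: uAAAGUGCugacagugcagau

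None of the 8 members held the 7-base match GCACTTT or its 6-base core in the longest annotated 3′ untranslated region. Those regions ran from 103 bases in Mylpf to 406 bases in Myl4, against a median of 1196 bases over 12923 kept genes with one. The 7-base match was present in 1869 of those genes (14.5%) and the 6-base core in 5395 (41.7%).

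Libraries held 28857739 to 42825246 reads on genes, of which the 8 members took 3.99 to 6.68%. The 8 skeletal fibre markers (Ckm, Des, Ttn, Neb, Ryr1, Cacna1s, Mb and Pygm) were abundant in every library, with a summed level of 16972 to 50484 CPM. Of 7 heart muscle markers 6 were in the table, and their sum was 3.47 to 5.68 CPM, with no group in which a marker stood at 0 in every library. The mitochondrial share of reads was 7.54 to 7.76% in scrambled day 3, 4.80 to 4.83% in anti-miR-106b day 3 and 8.18 to 10.7% at day 7. The library scrambled day 7 replicate 1 stood apart for Actc1, Myl3 and Myl4, and results that rest on it are given with and without it.

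On the scale of CPM per kilobase of transcript, which allows levels of different genes to be compared, the order in scrambled day 3 was Acta1 (18162 ± 1312), Mylpf (12152 ± 287), Myl1 (6948 ± 282), Actc1 (659.8 ± 78.7), Myl4 (457.3 ± 73.2), Myl6b (39.4 ± 6.84), Myl3 (14.5 ± 1.38) and Myl2 (3.40 ± 2.25; mean ± SD, n = 3). No neighbours in that order overlapped between animals. In anti-miR-106b day 3 the order was the same, but Actc1 (732.3 to 829.5) overlapped Myl4 (723.3 to 810.4), and Myl3 overlapped Myl2. At day 7 Myl3 stood above Myl6b in both arms, at 39.4 against 13.9 CPM per kilobase with the control and 35.7 against 17.5 with the inhibitor, without overlap. In anti-miR-106b day 7 the ranges of Acta1 and Mylpf overlapped, as did those of Myl6b and Myl2. Mylpf, Myl1 and Acta1 were thus the most abundant of their classes in all 12 libraries.

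**Figure D1:**
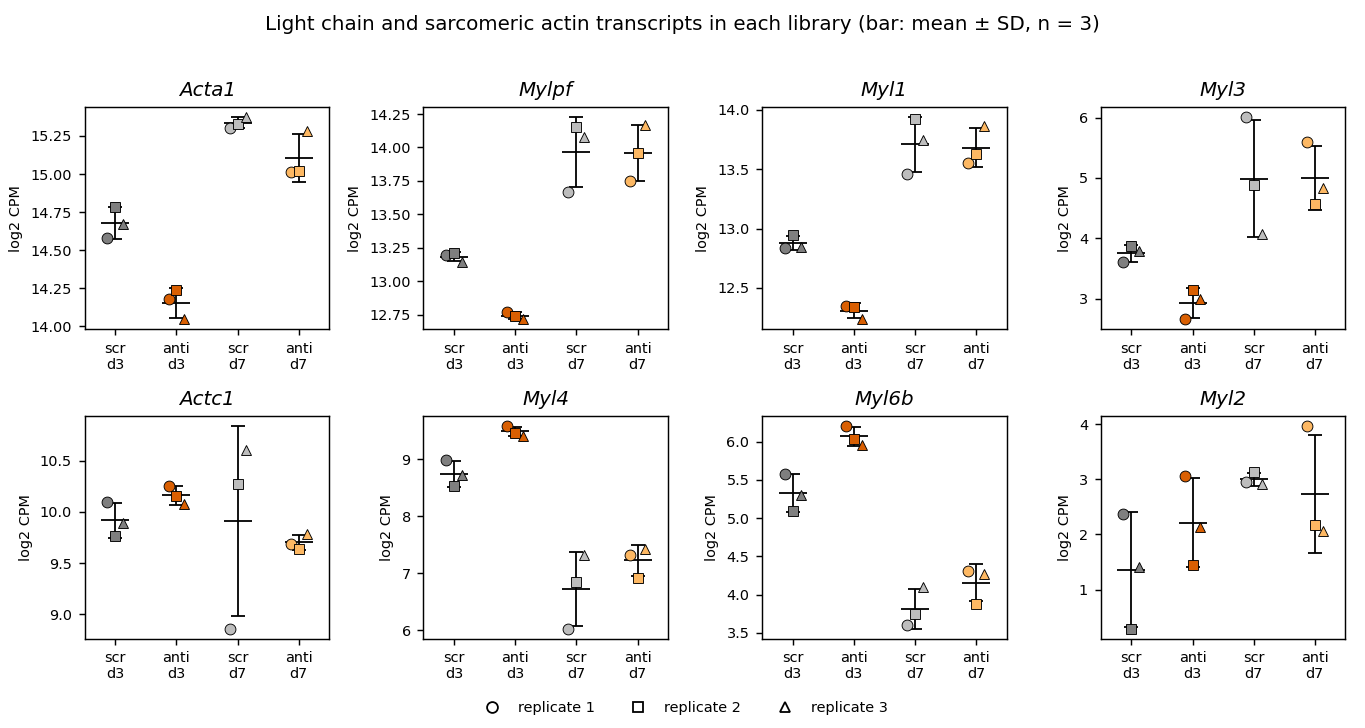
Log2 CPM (y axis) of the 8 members in each library, by group (x axis; scr, scrambled; anti, anti-miR-106b; d3 and d7, days 3 and 7), with a symbol per replicate and bars for mean ± SD, n = 3. At day 3 Acta1, Mylpf, Myl1 and Myl3 were lower and Myl4 and Myl6b higher in every anti-miR-106b library than in every scrambled one, and in scrambled day 7 Actc1 spread from 8.86 to 10.60.

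At day 3 the adult fast chains Myl1 and Mylpf and the adult skeletal actin Acta1 were 1.36-fold to 1.48-fold lower with the inhibitor than with the scrambled control, except under quantile normalization, where Myl1 and Mylpf lay above 0 (0.15 and 0.21 on the log2 scale) and Acta1 at 0. Myl4 and Myl6b were 1.68-fold and 1.67-fold higher. Log2 CPM, the deposited scale, was tested with limma over all kept genes, and a gene was called at a Benjamini-Hochberg adjusted p under 0.05. Of the 8 members 2 were called higher and 3 lower, where 16.3% of all tested genes were called higher and 19.4% lower (36.5% and 9.66% with libraries scaled by total reads). Groups did not overlap for 6 of the 8 members, against 60.5% of all tested genes. The median difference of the 8 members was -0.10 on the log2 scale, against 0.01 over all tested genes. Bulk RNA cannot tell fewer fibres from less of a transcript per fibre.

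Markers of fibres and of other cell types moved with the members. The summed level of the 8 fibre markers was 25385 to 29599 CPM in scrambled day 3 and 16972 to 18489 in anti-miR-106b day 3, and 7 of the 8 were called lower. The 6 satellite cell and myoblast markers (Pax7, Myf5, Myod1, Myog, Mymk and Mymx) summed to 438.3 to 576.6 CPM against 775.2 to 884.3, and 3 were called higher. The 9 macrophage markers summed to 3213 to 3282 CPM against 4467 to 4891, with 5 called higher. At day 7 none of these markers was called between arms, and their sums were 48139 to 50484 against 47010 to 48373 CPM for fibres, 82.9 to 112.6 against 66.5 to 110.0 for myoblasts and 393.7 to 625.2 against 425.6 to 662.7 for macrophages. The part of these shifts in the members' differences was not tested.

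Among smooth muscle and pericyte markers, 2 of 6 were called higher with the inhibitor at day 3 (sums of 597.9 to 667.5 against 771.9 to 882.7 CPM). Such sums weigh abundant markers most. The smooth muscle actin Acta2, also among the other actins below, is in this list, with means of 8.19 and 8.92 log2 CPM. The median log2 difference of the 6 was 0.24. Fibroblast markers summed to 9234 to 10006 against 10959 to 12377 CPM, with 2 of 6 called higher. Their median log2 difference was -0.0001, however, and their mean log2 levels overlapped between arms (9.42 to 9.56 against 9.55 to 9.62). Endothelial markers summed to 140.1 to 151.8 against 152.2 to 164.7 CPM, with 2 of 5 called higher. At day 7 the endothelial sums lay the other way without overlap, at 238.0 to 253.7 CPM with the control and 177.4 to 200.5 with the inhibitor. None of the 5 was called there (2 lower under total-read scaling and under quantile normalization), and for 4 of 5 the change of effect between days was called. Their part was not tested either. Under total-read scaling and quantile normalization the myoblast markers called were 5 and 4 and the macrophage markers 9 and 7, all higher, while quantile normalization put 1 fibre marker among those called higher and 1 endothelial marker among those called lower. The heart muscle markers were low in every group, with sums of 3.59 to 4.58 CPM in scrambled day 3 and 3.67 to 4.22 in anti-miR-106b day 3. Of the 3 that were kept, 1 was called lower at day 3, where total-read scaling called 1 higher and 0 lower. At day 7 none was called between arms.

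Acta1, the skeletal actin of adult thin filaments, was at 14.58, 14.79 and 14.67 log2 CPM in the day 3 controls and at 14.18, 14.24 and 14.05 in anti-miR-106b day 3. All 3 inhibitor libraries lay below all controls. The difference was -0.52 ± 0.15 (log2 ± SE, limma adjusted p = 0.0137). Leaving out anti-miR-106b replicate 3 or scrambled replicate 2 or 3 of day 3, or applying no filter, raised the adjusted p just above the threshold (up to 0.0605).

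Mylpf, the fast regulatory chain whose phosphorylation tunes the force of a twitch, was at 13.19, 13.21 and 13.15 log2 CPM in the controls and at 12.77, 12.74 and 12.72 with the inhibitor. The groups were separate and tightly spaced. Its difference of -0.44 ± 0.15 had a limma adjusted p of 0.0304, and the call was lost when any of the 6 day 3 libraries was left out (adjusted p up to 0.0857) and when libraries were scaled by total reads (-0.25, adjusted p = 0.139). Total-read scaling put the median of all genes at 0.20, in place of 0.01.

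Myl1, the fast essential chain, was at 12.84, 12.94 and 12.85 log2 CPM in the controls and at 12.35, 12.34 and 12.24 with the inhibitor, without overlap. Its difference of -0.57 ± 0.13 had a limma adjusted p of 0.00525. The direction of Myl1, Mylpf and Acta1 held under total-read scaling, with Myl1 at -0.38 and Acta1 at -0.33, both called, but not under quantile normalization. That method gives genes of equal rank in different libraries equal values.

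Myl4, the embryonic essential chain, was at 8.98, 8.52 and 8.72 log2 CPM in the day 3 controls and at 9.58, 9.46 and 9.41 in anti-miR-106b day 3. Every inhibitor library exceeded every control. Its difference of 0.74 ± 0.24 had a limma adjusted p of 0.0259, and leaving out any day 3 library other than scrambled replicate 1 raised that above the threshold, up to 0.102. Myl6b, the slow and nonmuscle essential chain, was at 5.58, 5.09 and 5.30 log2 CPM in the controls and at 6.20, 6.04 and 5.96 with the inhibitor. Its groups were separate too. The difference was 0.74 ± 0.15 (limma adjusted p = 0.00214), and it stayed called in every alternative computed.

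Myl3, the slow essential chain, was at 3.60, 3.88 and 3.78 log2 CPM with the control and at 2.66, 3.14 and 2.99 with the inhibitor at day 3. Its groups did not overlap, with the inhibitor libraries below, on the side of the fast chains and not of Myl4. The difference of -0.83 ± 0.36 missed the threshold with the spread shared by all 4 groups (limma adjusted p = 0.0909). It passed when only the day 3 libraries were fitted (adjusted p = 5.4e-05) or when scrambled day 7 replicate 1 was left out (adjusted p = 0.0128). Under total-read scaling it was -0.64 and not called (adjusted p = 0.153), and under quantile normalization it was -0.94 and called (adjusted p = 0.0355). The spread of Myl3 was wider at day 7, with an SD of 0.97 with the control, than at day 3, with 0.14.

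Actc1, the cardiac and fetal actin, was at 10.10, 9.76 and 9.89 log2 CPM in the day 3 controls and at 10.25, 10.16 and 10.08 in anti-miR-106b day 3, and the groups overlapped. Its difference of 0.24 ± 0.30 was not called (limma adjusted p = 0.555). Fitted on the day 3 libraries only, the same difference had an adjusted p of 0.0229. With library quality weights it was called as well (adjusted p = 0.0496). It was called neither under total-read scaling (0.43, adjusted p = 0.279) nor under quantile normalization (0.29, adjusted p = 0.49).

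Myl2, the slow regulatory chain, was on average the rarest member, resting on 44 to 482 reads a library. At day 3 it was at 2.37, 0.30 and 1.41 log2 CPM in the controls and at 3.06, 1.45 and 2.13 with the inhibitor. Animals within a group differed by more than the group means. The difference of 0.85 ± 0.54 had a limma adjusted p of 0.233.

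**Figure D2:**
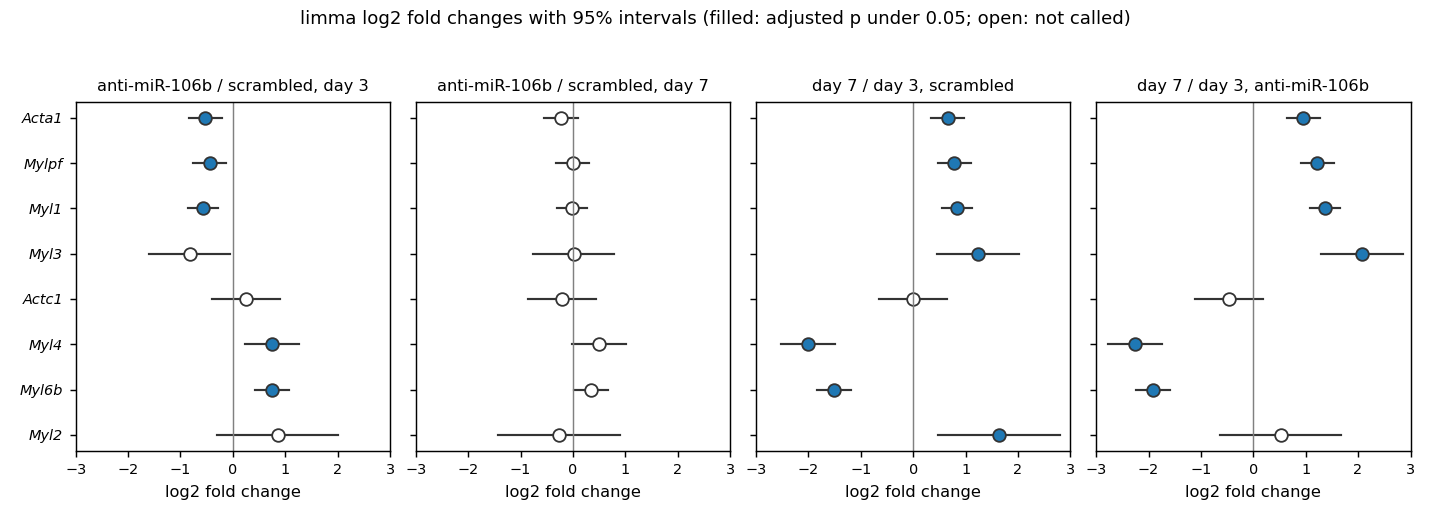
Log2 fold change (x axis) of each member (y axis) in 4 comparisons, with 95% intervals from limma; filled points had an adjusted p under 0.05. At day 3 Acta1, Mylpf and Myl1 lay below 0 and Myl4 and Myl6b above it, except that quantile normalization put Mylpf and Myl1 above 0 and Acta1 at 0; no member was called at day 7.

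At day 7 none of the 8 members was called, with 1 member (Myl6b) at an unadjusted p under 0.05. Over all tested genes 0.00711% were called higher and 0.0569% lower with the inhibitor, and 11.2% had an unadjusted p under 0.05. Groups did not overlap for 1 member, against 10.9% of all tested genes.

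That member was Acta1, at 15.31, 15.33 and 15.38 log2 CPM in the day 7 controls and at 15.01, 15.02 and 15.28 in anti-miR-106b day 7. The third inhibitor library lay just under the lowest control. The difference was -0.23 ± 0.15 (95% interval -0.55 to 0.09, limma adjusted p = 0.615). Myl1 was at 13.46, 13.92 and 13.74 log2 CPM with the control and at 13.55, 13.63 and 13.87 with the inhibitor, fully overlapping. Its interval of -0.31 to 0.26 excluded the point estimate seen at day 3. Mylpf was at 13.67, 14.16 and 14.08 against 13.75, 13.96 and 14.16, with an interval of -0.32 to 0.31.

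Myl4 was at 6.03, 6.85 and 7.31 log2 CPM in the day 7 controls and at 7.33, 6.92 and 7.42 in anti-miR-106b day 7. The difference of 0.49 ± 0.24 was not called (limma adjusted p = 0.461), and the low value belonged to scrambled replicate 1, without which it was 0.14. Myl6b was at 3.60, 3.75 and 4.11 log2 CPM against 4.31, 3.87 and 4.28, with a difference of 0.34 ± 0.15 (limma adjusted p = 0.426). For both genes the arms overlapped.

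Myl3 was at 6.01, 4.88 and 4.08 log2 CPM with the control and at 5.59, 4.57 and 4.84 with the inhibitor. Replicate 1 was the highest of its group in both arms. The difference was 0.01 ± 0.36, and without scrambled replicate 1 it was 0.52, not called. Myl2 was at 2.95, 3.13 and 2.91 against 3.96, 2.18 and 2.06 log2 CPM, so that the controls were close together and the inhibitor libraries bracketed them.

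Actc1 at day 7 rested on 1 library. It was at 8.86, 10.27 and 10.60 log2 CPM in the day 7 controls and at 9.69, 9.64 and 9.78 in anti-miR-106b day 7. With all libraries the difference was -0.21 ± 0.30 (limma adjusted p = 0.842). Without scrambled replicate 1 it was -0.74 and was called (limma adjusted p = 0.00622), and without scrambled replicate 3 it was 0.14. Leaving out scrambled replicate 1 also raised the number of all tested genes called at day 7 from 9 to 457.

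The change of the inhibitor effect from day 3 to day 7 was called for 0 of the 8 members by limma, with 1 at an unadjusted p under 0.05, where 13.2% of all tested genes were called higher and 9.07% lower (6.10% and 24.6% under total-read scaling). The call missed most narrowly was that of Myl1, with a change of 0.54 ± 0.19 (limma adjusted p = 0.0547), and voom weights brought it past the threshold (adjusted p = 0.0219). So the loss of called members at day 7 was not itself shown as a difference between days for these genes. Without scrambled day 7 replicate 1, where 4555 of all tested genes were called in place of 3134, 3 members were called: Actc1 (-0.98, limma adjusted p = 4.2e-04), Myl3 (1.35, adjusted p = 0.0104) and Myl4 (-0.60, adjusted p = 0.0462).

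From day 3 to day 7 with the scrambled control, the fast chains and Acta1 rose 1.58-fold to 1.78-fold, except under quantile normalization, where their signs flipped, and Myl4 fell 4.03-fold. Of the 8 members 5 were called higher and 2 lower, where 32.9% of all tested genes were called higher and 35.3% lower (10.7% and 61.4% under total-read scaling, 43.2% and 28.0% under quantile normalization). Acta1 rose by 0.66 ± 0.15 (limma adjusted p = 0.0013), Mylpf by 0.78 ± 0.15 (adjusted p = 3.2e-04) and Myl1 by 0.83 ± 0.13 (adjusted p = 8.8e-05), on the log2 scale. Under quantile normalization the 3 values were -0.11, -0.035 and -0.083, and total-read scaling, which moved the median of all genes by -0.42, left Acta1 at 0.25 (limma adjusted p = 0.0552), Mylpf at 0.38 and Myl1 at 0.43. Markers moved with the members over time in both arms: all 8 fibre markers were called higher (Des lay below 0 under both other scalings, and Neb in the control arm under quantile normalization), and all 9 macrophage markers and all 6 satellite cell and myoblast markers lower. Of the 6 fibroblast markers 5 were called lower in each arm and 1, Dcn, higher with the inhibitor. Dcn lay below 0 in that arm under both other scalings, at -0.34 and called lower under total-read scaling and at -0.14 under quantile normalization. Of the 5 endothelial markers 5 were called higher with the control and 3 with the inhibitor, where total-read scaling called 4 lower. Smooth muscle and pericyte markers went both ways. Of the 3 kept heart muscle markers 1 was called higher and 1 lower with the control, and 2 higher and 1 lower with the inhibitor. The mitochondrial share of reads was higher at day 7 than at day 3 in every library of either arm. The part of these shifts in the time changes was not tested.

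The embryonic chain Myl4 changed by -2.01 ± 0.24 (limma adjusted p = 6.0e-06) and Myl6b fell 2.84-fold (adjusted p = 1.3e-06), in the same direction under all 3 scalings. The slow chain Myl3 did not follow them: it rose by 1.23 ± 0.36 (limma adjusted p = 0.00815), and by 0.72 without scrambled day 7 replicate 1 (adjusted p = 0.0272). Myl2 rose by 1.64 ± 0.54 (limma adjusted p = 0.0153), a call that was lost without scrambled day 3 replicate 2, the library with 44 reads (1.11, adjusted p = 0.0831), and under total-read scaling (1.23, adjusted p = 0.0613). Actc1 differed by -0.01 ± 0.30 (limma adjusted p = 0.989), but without scrambled day 7 replicate 1 it was higher at day 7 by 0.52 (adjusted p = 0.00103).

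With the inhibitor, the same comparison called 4 members higher and 2 lower, where 37.9% of all tested genes were called higher and 40.8% lower (15.1% and 68.7% under total-read scaling, 46.0% and 34.1% under quantile normalization). The 2 time comparisons share no libraries with each other, but each shares its groups with the comparisons of the arms. Acta1 rose 1.93-fold, Mylpf 2.32-fold and Myl1 2.59-fold, although under quantile normalization their log2 differences were -0.31, -0.33 and -0.27, with Mylpf and Myl1 called lower there, and under total-read scaling they were 0.33, 0.59 and 0.75. Myl3 rose by 2.07 ± 0.36 (limma adjusted p = 1.2e-04). Myl4 fell 4.79-fold and Myl6b 3.76-fold. Neither Actc1 (-0.46 ± 0.30, limma adjusted p = 0.178) nor Myl2 (0.52 ± 0.54, adjusted p = 0.386) was called. Actc1 was, however, called lower under total-read scaling (-1.08, limma adjusted p = 0.00632), which moved the median of all genes by -0.67, and under quantile normalization (-0.95, adjusted p = 0.0127), with library quality weights (adjusted p = 0.030) and with only the 2 groups compared in the fit (adjusted p = 1.5e-04). The day 3 and day 7 values of Actc1 did not overlap in this arm, and without scrambled day 7 replicate 1, which is in neither group but widens the shared spread, the same -0.46 was called (adjusted p = 7.2e-04).

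Isoform shares within a protein class, in CPM per kilobase, do not depend on the factor by which a library was scaled. Myl4 made up 7.27, 5.06 and 6.10% of the 4 essential chains in scrambled day 3 and 14.2, 13.3 and 13.8% in anti-miR-106b day 3. All inhibitor libraries lay above all controls. At day 7 its share was 0.936 ± 0.336% with the control and 1.29 ± 0.21% with the inhibitor (SD, n = 3), and the arms overlapped.

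The log2 ratio of Myl4 to Myl1 changed by -3.24 from day 3 to day 7 over both arms, by -2.84 with the control and -3.64 with the inhibitor. An exact permutation test of the day labels within each arm gave p = 0.005, the smallest that its 400 arrangements allow, and 0.04 after adjustment over 8 ratio tests. Averaged over both days, the ratio was 0.92 higher with the inhibitor (exact permutation p = 0.015, adjusted p = 0.04). That call was lost (adjusted p up to 0.0667) without any 1 of the scrambled day 3 libraries, scrambled day 7 replicate 1 or 2, or anti-miR-106b day 7 replicate 1. Within days the difference was 1.31 at day 3 and 0.52 at day 7, where 3 against 3 animals cannot give a p below 0.1. Myl6b was 0.529 ± 0.102% of the essential chains with the control and 1.18 ± 0.06% with the inhibitor at day 3, without overlap, and was at 0.111 ± 0.020% and 0.142 ± 0.026% at day 7 (SD, n = 3).

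**Figure D3:**
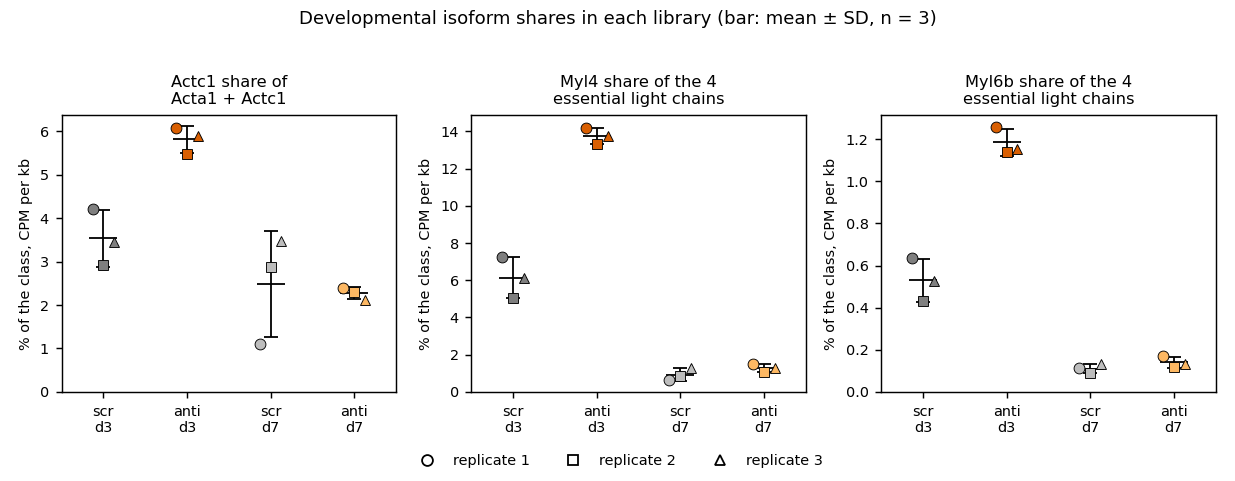
Share of the class total in CPM per kilobase (y axis, percent, from 0) of Actc1 among the 2 sarcomeric actins and of Myl4 and Myl6b among the 4 essential chains, by group (x axis, with scr for scrambled, anti for anti-miR-106b, d for day), with a symbol per replicate and bars for mean ± SD, n = 3. At day 3 every inhibitor library lay above every control in all 3 panels, and at day 7 the arms overlapped.

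Actc1 made up 4.22, 2.93 and 3.45% of sarcomeric actin in scrambled day 3 and 6.08, 5.48 and 5.89% in anti-miR-106b day 3. The groups did not overlap, although those of Actc1 itself did. At day 7 its share was 1.11, 2.87 and 3.47% with the control and 2.39, 2.31 and 2.12% with the inhibitor. The log2 ratio of Actc1 to Acta1 changed by -1.04 from day 3 to day 7 over both arms (exact permutation p = 0.015, adjusted p = 0.04), by -0.66 with the control, where days overlapped, and by -1.41 with the inhibitor, where they did not. The same 6 libraries, each left out in turn, ended this call too (adjusted p up to 0.0933). The difference between arms, 0.77 at day 3 and 0.02 at day 7, was not called (exact permutation p = 0.205, adjusted p = 0.328).

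The slow isoforms Myl2 and Myl3 made up under 1% of their classes throughout. Myl3 was 0.118 to 0.204% of the essential chains at day 3 and 0.140 to 0.651% at day 7, and the ratio of Myl3 to Myl1 was called neither between days (0.55, exact permutation adjusted p = 0.328) nor between arms (-0.11, adjusted p = 0.789). Without scrambled day 7 replicate 3 the first was called (0.78, adjusted p = 0.01). Myl2 was 0.0111 to 0.103% of the regulatory chains, and its ratio to Mylpf was called neither between days (0.08, exact permutation adjusted p = 0.895) nor between arms (0.52, adjusted p = 0.5).

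The actins outside the sarcomere all rose with the inhibitor at day 3, in 4 of 4 cases, with a median log2 difference of 0.64 against 0.01 for all tested genes. These were the cytoskeletal actins Actb (0.54 ± 0.08, limma adjusted p = 4.1e-04) and Actg1 (0.31 ± 0.09, adjusted p = 0.0144) and the smooth muscle actins Acta2 (0.73 ± 0.18, adjusted p = 0.00777) and Actg2 (1.11 ± 0.34, adjusted p = 0.0198). The higher calls at day 3 held for all 4 under total-read scaling and quantile normalization. All 4 fell from day 3 to day 7 in both arms, Acta2 by 2.21 with the control and 2.80 with the inhibitor on the log2 scale. None was called between arms at day 7. The coding sequence of Acta1 has 86.3% of its bases in common with Actc1 and 85.4% with Acta2 over 1131 bases, with no identical stretch longer than 29 bases in either pair. How reads that fit several actins were counted is not given in the sources used here, so a small exchange of reads between them was not tested.

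Other myosin light chains and light chain kinases numbered 10 in the data, of which 9 were kept, and at day 3 the inhibitor arm had 5 called higher and 2 lower. Those called higher were the nonmuscle and smooth muscle chains Myl9 (0.75 ± 0.11), Myl6 (0.50 ± 0.09), Myl12b (0.43 ± 0.14) and Myl12a (0.43 ± 0.09) and the ubiquitin ligase Mylip (0.20 ± 0.06). Those called lower were Mylk2, the kinase that phosphorylates Mylpf in skeletal muscle (-0.85 ± 0.10, limma adjusted p = 8.9e-05), and Mylk4 (-1.54 ± 0.15, adjusted p = 3.5e-05). By day 7 Mylk2 differed between arms by -0.04 ± 0.10 and Mylk4 by 0.17 ± 0.15, and for both genes the change of the effect between days was called (limma adjusted p = 0.00253 and 6.0e-04). Total-read scaling called 6 higher and 2 lower, and quantile normalization 5 and 2. Myl5 and Myl7 were not analysed here.

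Of 25 kept genes of the tropomyosins and thin filament assembly, 3 were called higher and 13 lower with the inhibitor at day 3 (median -0.26), a split that became 7 and 8 under total-read scaling and 3 and 9 under quantile normalization. Lower genes included Kbtbd13 (-0.89 ± 0.13), the skeletal tropomyosin Tpm1 (-0.79 ± 0.13) and the pointed-end cap Tmod4 (-0.66 ± 0.08), and the higher ones were the nonmuscle cofilin Cfl1 (0.64 ± 0.11) and the tropomyosins Tpm3 (0.49 ± 0.10) and Tpm4 (0.40 ± 0.09). From day 3 to day 7, 17 of these genes rose and 5 fell with the control, and 19 rose and 5 fell with the inhibitor, against 9 and 6 and 13 and 6 under total-read scaling. At day 7 none was called between arms.

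Among regulators of the actin genes, 5 of 13 were called lower and 1 higher with the inhibitor at day 3 (median -0.17), but under total-read scaling 2 were called lower and 4 higher. Srf itself was lower by a small amount (-0.29 ± 0.08, limma adjusted p = 0.0111), as were its coactivator Mkl2 (-0.47 ± 0.10, adjusted p = 0.0031), Mef2c (-0.58 ± 0.07, adjusted p = 5.3e-05), Mef2d (-0.33 ± 0.07, adjusted p = 0.00356) and Tead1 (-0.52 ± 0.10, adjusted p = 0.0014). Mkl1 was not called (-0.17 ± 0.10, limma adjusted p = 0.204). At day 7 none of the 13 was called between arms, and Srf differed by 0.00 ± 0.08. Among the 3 members with a CArG box upstream, Acta1 was called lower at day 3 and Myl3 and Actc1 were not called.

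The kept genes whose 12 values ran closest to each member after centring, by root mean square difference in log2 CPM, were Tmod4 for Myl1 (0.09), Cox14 for Mylpf (0.09), Dpf3 for Acta1 (0.09), Bex1 for Myl6b (0.12), Vash2 for Myl4 (0.14), Fut2 for Actc1 (0.16), 2310069B03Rik for Myl3 (0.28) and Wif1 for Myl2 (0.53). Myl1, Mylpf and Acta1 themselves varied by 0.46 to 0.60 on that measure. Myl2, which varied by 0.93, thus had no close companion. Tmod4 changed by -0.66, 0.77 and 1.43 in the day 3 comparison of arms and in the control and inhibitor time comparisons, where Myl1 changed by -0.57, 0.83 and 1.37. Because Tmod4 was picked by these same 12 values, that likeness follows from the choice and is no separate result.

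Positions are those of GENCODE M21 on GRCm38, the assembly also named mm10. Acta1 lies at chr8:123891769-123894751 and Mylpf at chr7:127208890-127214298, Myl1 at chr1:66924295-66945404 and Myl6b at chr10:128494157-128498685. The last 3 of these overlap no other annotated gene. Myl4 (chr11:104550663-104595753), Myl3 (chr9:110741861-110769798), Myl2 (chr5:122100951-122113472), Actc1 (chr2:114047282-114053548) and Acta1 overlap genes on the opposite strand. Whether reads were counted by strand is not given in the sources used here, so reads of such partners cannot be told apart. Of these partners, the one with the highest level in the table was Pth1r, beside Myl3, with a median of 2.49 log2 CPM, against 2.66 to 6.01 for Myl3.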

How the data were processed

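The deposited table holds log2 CPM per gene symbol in 12 libraries, made by the authors. The submitters' processing notes name the build mm10 and the tools STAR, featureCounts, limma 3.34.9, edgeR 3.20.9, Trim Galore 0.4.3.1 and FastQC 0.72, with no order or settings. Removing the logarithm gave whole reads within 0.001 for all values, with a prior of 0.25 reads on average and library sizes scaled by factors of 0.803 to 1.32. At 1 CPM a gene had 28.1 to 46.9 reads. The SDs, SEs and intervals given rest on the spread between libraries and not on numbers of reads. Reads carry no molecular identifiers.

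Here limma 3.58.1 (R 4.3.3) fitted 1 mean for each of the 4 groups to the log2 values of all 12 libraries. The prior variance was allowed to follow expression, giving 5.59 prior beside 8 residual degrees of freedom. Tests were two-sided, with Benjamini-Hochberg adjustment over the 14063 kept genes. The script was tested on simulated data. Ratios of isoforms were tested by exact permutation within strata in Python 3.11.15 with scipy 1.17.1. Transcript lengths are those of the longest coding transcript in GENCODE M21. Motifs were searched on both strands.

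Members, gene lists and tests were chosen with earlier results of these data known. All 8 members are named, and of each list up to 3 genes per direction, apart from other actins, light chains, thin filament genes and actin gene regulators, of which further ones were named after their values were seen. Same-numbered libraries had residual correlations of -0.04 to 0.14, so numbers were not treated as pairs. Alternatives covered scaling, filter, pseudocount, prior, weights, libraries fitted, the replicate block and leaving out each library. A further gene of the list of actin gene regulators is not reported here and is left out of its counts. The counts of list genes called under other scalings were added after seeing the data. One sentence of the series' description gives the later time as 5 days, while every library's label says 3 or 7. The later time is given as 7.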

Additional observations from a re-analysis of the deposited data

How the results depend on the processing

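Myl6b kept its direction and its side of the threshold in all comparisons under every alternative computed. The count of 5 members called at day 3 became 3 under quantile normalization and without a filter, and 8 with library quality weights, where 6035, 4483 and 8820 of all tested genes were called in place of 5022. Without a filter Mylpf and Acta1 lost their calls, and with a prior without trend Myl4 did (adjusted p = 0.0541). The count ran from 2 to 6 when single libraries were left out, where 3488 to 5673 of all tested genes were called. At day 7 it then ran from 0 to 1, where 0 to 457 of all tested genes were called. For the change of effect between days it ran from 0 to 3, where 2063 to 4555 were called. That last count was 1 with a prior without trend or with voom weights and 2 with library quality weights. All tested genes called were then 2678, 3247 and 5334, in place of 3134. For day 7 against day 3 with the control the count was 4 in place of 7 under quantile normalization. There 10018 of all tested genes were called in place of 9587. That normalization reversed Myl1, Mylpf and Acta1: at day 3 to 0.15 and 0.21 for Myl1 and Mylpf, for the change of effect to -0.18, -0.30 and -0.20, for the time change to -0.083, -0.035 and -0.11 with the control and to -0.27, -0.33 and -0.31 with the inhibitor. It also gave ratio changes from day 3 to day 7 of -0.43 for Actc1 to Acta1, no longer called, and of 2.01 for Myl3 to Myl1 and 1.67 for Myl2 to Mylpf, both called. Total-read scaling put the day 7 difference of Myl3 at -0.018 and the time change of Myl2 with the inhibitor at -0.10, and library quality weights put that of Actc1 with the control at 0.26. With 1 CPM added, the Myl2 to Mylpf change between days was -0.14. The causes were not tested. Leaving out single libraries reversed uncalled values: the day 7 differences ran from -0.15 to 0.081 for Myl1, -0.88 to 0.073 for Myl2, -0.45 to 0.52 for Myl3, -0.16 to 0.10 for Mylpf and -0.74 to 0.14 for Actc1, the change of effect from -0.60 to 0.040 for Myl4, and the time change from -0.35 to 0.52 for Actc1 with the control and -0.094 to 0.94 for Myl2 with the inhibitor. Ratio changes between days then ran from -1.20 to -0.78 for Actc1 to Acta1, from 0.23 to 0.78 for Myl3 to Myl1 and from -0.28 to 0.33 for Myl2 to Mylpf, and differences between arms from 0.80 to 1.05 for Myl4 to Myl1 and from -0.35 to 0.21 for Myl3 to Myl1. The replicate block left the counts of called members as they were. For the ratios it gave the same values, -1.04 for Actc1 to Acta1 and -3.24 for Myl4 to Myl1 between days and 0.92 for Myl4 to Myl1 between arms, with adjusted p = 0.167, where its 64 exact arrangements allow no unadjusted p below 0.0312.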

Other observations

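Genes that fold and assemble myosin were followed as a further list of 7, all kept. With the inhibitor at day 3, 1 was called higher and 3 lower by limma (median log2 difference -0.09, against 0.01 over all tested genes), and under total-read scaling 2 and 2. The lower ones were Smyd1, a methyltransferase needed for sarcomere assembly (-0.50 ± 0.07, adjusted p = 1.8e-04), the myosin chaperone Unc45b (-0.26 ± 0.07, adjusted p = 0.0123) and Cmya5 (-0.85 ± 0.10, adjusted p = 1.1e-04). The chaperone Hsp90aa1 was higher (0.37 ± 0.10, adjusted p = 0.0108). At day 7 none of the 7 was called between arms. From day 3 to day 7, 3 rose and 2 fell with the control, where 32.9% of all tested genes were called higher and 35.3% lower. With the inhibitor 4 rose and 2 fell, where the shares were 37.9% and 40.8%. Under total-read scaling 2 rose and 3 fell in each arm. Quantile normalization gave 3 and 3 with the control and 3 and 2 with the inhibitor.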
